A study of Mus musculus with 15 samples.

Results

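The genes described here carry fatty acids into mitochondria and peroxisomes, burn them, and make or use ketone bodies: 34 genes, taken by name from the 40481 genes of a count table of RNA from the RPE/choroid complex of mouse eyes, the retinal pigment epithelium with the vascular layer behind it. The list held enzymes, transporters, a nuclear receptor and a coactivator, and its members were taken by name. All 34 were in the table and 33 were tested, 1 of them (Cpt1b) having too few reads. The libraries came from 7 control and 8 INK-ATTAC samples.

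Both groups had the genotype Abca1/Abcg1 flox/flox with LysM-Cre, a Cre expressed in macrophages and other myeloid cells, so controls too were bred to lack both cholesterol exporters in those cells, and no group without that deletion was analysed here. INK-ATTAC mice carried in addition a caspase 8 fusion protein under the p16Ink4a promoter, and AP20187 joins the fusion proteins and so kills cells in which that promoter is active. Every sample was labelled as given AP20187 by intraperitoneal injection, for 3 months in the INK-ATTAC mice. The labels give neither the duration in controls nor the age or sex of the mice, and do not say whether libraries came from separate animals, so p-values measure the spread between these libraries, which may be in part technical.

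The RPE burns the fatty acids of the photoreceptor outer segments it takes up each day, and it passes ketone bodies back to the retina. Long-chain fatty acids are joined to coenzyme A, handed to carnitine for the passage into mitochondria, and shortened there by a cycle of dehydrogenation, hydration, dehydrogenation and thiolysis. The electrons leave through the electron transfer flavoprotein, and the acetyl units enter the citric acid cycle or ketone bodies.

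Libraries held 39121503 to 65065950 counted reads. The defining RPE transcripts were abundant in both groups: Rpe65, the visual cycle isomerase, had 240925 to 325463 reads in controls and 246482 to 315196 in INK-ATTAC libraries. Cdkn2a, the gene whose p16Ink4a promoter drives the transgene, had 0 to 2 reads in controls and 0 to 4 in INK-ATTAC libraries, too few for any comparison at this depth. Markers of neighbouring tissues varied between libraries, with summed skeletal muscle markers at 315 to 2654 CPM (counts scaled to a common library size) in controls and 732 to 3765 in INK-ATTAC libraries. Rod photoreceptor markers summed to 870 to 3012 CPM in controls and 494 to 2710 in INK-ATTAC libraries. By log2 level of Xist, the transcript of the inactive X chromosome, the libraries fell into 7 of low Xist (-0.76 to 0.93: controls 1 to 3 and INK-ATTAC 1 to 4) and 8 of high Xist (6.13 to 6.75: controls 4 to 7 and INK-ATTAC 5 to 8). These classes are not groups of the study.

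The windows upstream of 5 of the genes are shown because the amounts of these genes moved with the RPE markers or with the Xist class described further on. Each is the stretch of the 250 bases before the RefSeq start (GRCm38.p6) that no GENCODE M21 exon covers, printed 5′ to 3′ along the gene's strand. Capitals mark AGGTCA, the hexamer bound by nuclear receptors such as PPARα, and GGGCGG, the core of the GC box, on either strand.
Cpt1a, chr19:3323051-3323284, strand +: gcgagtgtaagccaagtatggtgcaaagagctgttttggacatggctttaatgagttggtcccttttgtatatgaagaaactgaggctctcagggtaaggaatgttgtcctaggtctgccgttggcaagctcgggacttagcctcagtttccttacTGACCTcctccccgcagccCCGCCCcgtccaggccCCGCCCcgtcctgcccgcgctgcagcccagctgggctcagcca
Cpt2, chr4:107923611-107923839, strand -: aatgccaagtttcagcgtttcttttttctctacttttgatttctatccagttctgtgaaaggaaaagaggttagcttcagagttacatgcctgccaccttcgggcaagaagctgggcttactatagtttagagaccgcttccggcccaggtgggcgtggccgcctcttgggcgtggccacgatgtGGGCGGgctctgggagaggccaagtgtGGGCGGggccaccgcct
Slc25a20, chr9:108661886-108662087, strand +: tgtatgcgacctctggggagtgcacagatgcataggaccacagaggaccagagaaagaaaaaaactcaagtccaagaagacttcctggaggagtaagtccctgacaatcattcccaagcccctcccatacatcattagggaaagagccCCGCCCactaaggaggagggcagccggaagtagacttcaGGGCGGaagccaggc
Acadvl, chr11:70015429-70015678, strand -: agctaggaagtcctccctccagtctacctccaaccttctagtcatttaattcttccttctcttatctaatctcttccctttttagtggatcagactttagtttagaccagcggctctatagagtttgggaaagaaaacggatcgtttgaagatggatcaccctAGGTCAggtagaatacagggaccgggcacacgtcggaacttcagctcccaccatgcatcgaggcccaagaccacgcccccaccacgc
Acadl, chr1:66863310-66863559, strand -: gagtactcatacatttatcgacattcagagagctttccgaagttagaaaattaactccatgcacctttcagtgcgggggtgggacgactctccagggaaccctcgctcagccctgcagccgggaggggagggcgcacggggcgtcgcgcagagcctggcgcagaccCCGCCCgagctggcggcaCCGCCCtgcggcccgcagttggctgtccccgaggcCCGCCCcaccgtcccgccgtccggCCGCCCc
The capitals show 1 AGGTCA each in the Cpt1a and Acadvl windows and GC boxes in those of Cpt1a, Cpt2, Slc25a20 and Acadl.

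Of the 34 genes, 28 had such a window in the RefSeq table, and 9 motifs were searched on both strands over the whole 250 bases. AGGTCA was in the windows of 4 of the 28 genes (Acadm, Acadvl, Cpt1a and Echs1), against 14.02% of all 32851 windows. GGGCGG was in those of 18 of 28, against 32.7% of all windows. CCAAT was in 12 of 28 (33.8% of all windows) and ACTTCCNG in 4 of 28 (7.58%). The others were rare or absent: AAGGTCA, each match of which is also one of the shorter hexamer, in 1 gene (4.08% of all windows); CACGTG in 1 (6.02%); ACTACAA in 1 (2.81%); GCGCATGCGC in 2 (0.782%); and a pair of AGGTCA with 1 base between, the PPAR element, in 0 (0.0335%). These matches describe letters and not bound sites.

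Etfb, Eci1, Acaa2, Echs1 and Etfa were the most abundant of these genes per length. Levels between genes are given as CPM divided by the length of the principal transcript in kilobases (RPKM), as the mean ± SD over all 15 libraries. Etfb, the β subunit of the electron transfer flavoprotein, stood first at 577 ± 51.9 RPKM, and its libraries did not overlap those of any other of the genes. Etfb shares exon bases with an annotated read-through gene, so part of its reads cannot be assigned with certainty. Eci1, which moves double bonds of unsaturated fatty acids, followed at 263 ± 27.6 RPKM, and Acaa2, the thiolase that splits off acetyl units, at 215 ± 36.4 RPKM, with overlapping ranges. Echs1, the hydratase of short chains, reached 135 ± 11.8 RPKM and Etfa, the α subunit of the flavoprotein, 119 ± 13.5 RPKM. The ranges of neighbours in the order overlapped from Echs1 down to Acsl5.

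At the low end of the tested genes were Ppara, Ehhadh and Bdh1. Ppara, the fatty acid-sensing nuclear receptor, was at 2.66 ± 0.323 RPKM. Ehhadh, a peroxisomal bifunctional enzyme, was at 2.74 ± 0.462 RPKM, and Bdh1, which interconverts acetoacetate and β-hydroxybutyrate, at 3.63 ± 0.481 RPKM. Neighbours among these overlapped in range, but Bdh1 did not overlap Acsl5, the next above. Other peroxisomal and ketone genes stood higher. Acaa1a, the peroxisomal thiolase, was at 57.1 ± 5.45 RPKM and Hsd17b4, another peroxisomal bifunctional enzyme, at 31.7 ± 1.90 RPKM. Oxct1, which activates acetoacetate for use as fuel, was at 53.8 ± 4.11 RPKM and Acat1, the acetoacetyl-CoA thiolase, at 64.1 ± 6.87 RPKM.

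Of the 2 forms of the first carnitine enzyme in the list, the liver form was the one detected. Cpt1a, which loads fatty acids onto carnitine at the outer mitochondrial membrane, was at 21.2 ± 3.21 RPKM. Cpt1b, the muscle form of that enzyme, had 11 reads in all libraries together. Controls 1 to 7 had 0, 2, 0, 0, 0, 4 and 0 of these reads and INK-ATTAC libraries 1 to 8 had 1, 1, 0, 1, 2, 0, 0 and 0. A count of 0 allows up to 3 reads, so that neither group can be set above the other at this depth. Most of the exonic bases of Cpt1b (2744 of 3372) also belong to the read-through gene Gm44502, which has no entry in the count table, and how reads in the shared bases were counted is not given in the sources used here, so this near-absence is uncertain. Slc25a20, the carrier that takes acylcarnitine through the inner membrane, was at 37.3 ± 4.65 RPKM, and Cpt2, which returns the acyl group to coenzyme A, at 39.2 ± 5.44 RPKM.

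**Figure D1:**
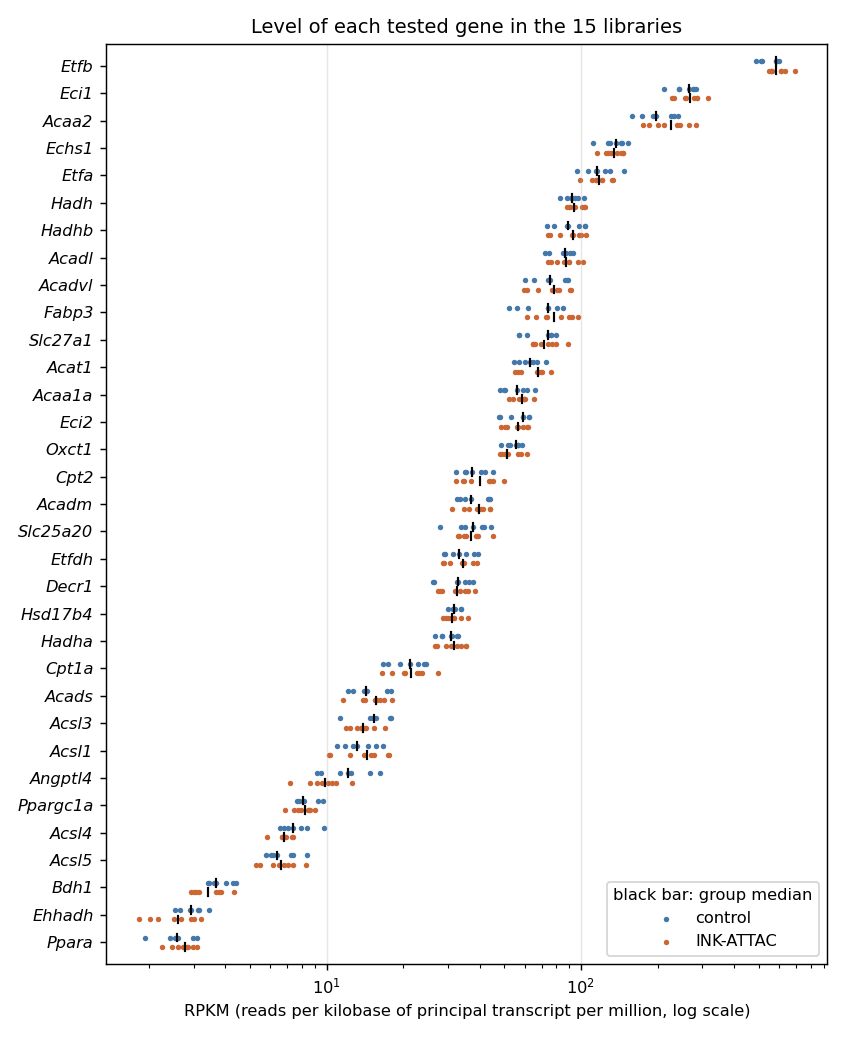
Level of the 33 tested genes in every library (RPKM, log axis; 1 point a library, 7 control and 8 INK-ATTAC; black bars are group medians). Etfb stands alone at the top, Bdh1, Ehhadh and Ppara at the bottom, and the 2 groups overlap in every gene.

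INK-ATTAC libraries, from the mice with the transgene, were set against control libraries. No gene of the 33 passed the test, and none of the 17991 genes tested did (0%; edgeR's quasi-likelihood test with Benjamini-Hochberg adjustment at 0.05). Without adjustment, 2 of the 33 had a p under 0.05, beside 4.14% of all genes, 745 in number. The fitted differences were small in either direction: 17 genes were on the higher and 16 on the lower side, their median was 0.00039 (log2) beside -0.00097 for all genes tested, and 25 of 33 lay within 0.1 of 0. Their standard errors ran from 0.06 to 0.13 (log2), which sets the size of difference that this number of libraries could show.

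Of the regulators and secreted factors, Angptl4 had the lowest p. Its product, a secreted inhibitor of lipoprotein lipase, is a classical PPAR target. Angptl4 (chr17:33773750-33781830) was at 30.3 CPM in the lowest control, 40.3 in the median and 53.8 in the highest, and at 23.7, 32.7 and 41.5 CPM in the INK-ATTAC libraries. The INK-ATTAC median lay near the lowest control, but the groups overlapped. The log2 fold change of Angptl4 was -0.32 (SE 0.13, unadjusted p = 0.0241, adjusted p = 1.00 by edgeR). Ppara was at 6.58, 8.82 and 10.6 CPM in controls (lowest, median, highest) and at 7.67, 9.45 and 10.5 CPM in INK-ATTAC libraries, a log2 difference of 0.07 (SE 0.10). Ppargc1a, the coactivator of mitochondrial genes, was at 49.4, 52.3 and 62.8 CPM in controls and at 44.3, 53.0 and 58.2 CPM in INK-ATTAC libraries, a log2 difference of -0.05 (SE 0.07). The groups overlapped almost wholly for both, and leaving out 1 library the difference ran from 0.01 to 0.11 for Ppara and from -0.09 to -0.02 for Ppargc1a.

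Among the acyl-CoA synthetases, which trap fatty acids in the cell, Acsl4 and Acsl3 were on the lower side. Acsl4 (chrX:142317993-142390535), which prefers arachidonic acid, was at 34.6, 38.9 and 51.6 CPM in controls and at 30.8, 35.9 and 39.0 CPM in INK-ATTAC libraries. Its log2 fold change was -0.18 (SE 0.08, unadjusted p = 0.0426, adjusted p = 1.00 by edgeR). Controls 2, 4 and 5 lay above every INK-ATTAC library and the remaining controls among them, and without control 4 the log2 fold change was -0.11. Acsl3, the lipid droplet form, was at 44.8, 60.8 and 70.7 CPM in controls and at 47.2, 55.0 and 66.8 CPM in INK-ATTAC libraries, a log2 fold change of -0.14 (SE 0.09). Acsl1 and Acsl5, the mitochondrial forms, differed by less than 0.1 (log2).

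Fabp3, which carries fatty acids through the cytosol of muscle and other cells, had the highest fitted difference of the 33. Fabp3 (chr4:130308595-130315463) was at 42.7, 61.1 and 69.7 CPM in controls and at 50.4, 64.5 and 79.8 CPM in INK-ATTAC libraries, a log2 fold change of 0.20 (SE 0.12, unadjusted p = 0.109 by edgeR). INK-ATTAC libraries 1, 2 and 5 lay above every control and the others overlapped. Skeletal muscle expresses Fabp3, and all 21 skeletal muscle markers were on the higher side in INK-ATTAC libraries (median log2 fold change 0.82, 0 of 21 past the threshold). Per unit of the muscle marker level the amount of Fabp3 was 0.19 higher (log2, SE 0.06, unadjusted p = 0.00654, adjusted p = 0.258 by edgeR). With the muscle level added to the group test, Fabp3 stayed on the higher side in INK-ATTAC libraries and was not called. How large a part muscle had in the group difference was not tested. Heart and slow muscle markers, whose tissue is richest in Fabp3, summed to 19.4 to 99.4 CPM in controls and 37.8 to 125 CPM in INK-ATTAC libraries.

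Of the peroxisomal enzymes, Ehhadh was at 7.57, 8.70 and 10.3 CPM in controls and at 5.45, 7.72 and 9.55 CPM in INK-ATTAC libraries. The log2 fold change of Ehhadh was -0.22 (SE 0.12, unadjusted p = 0.0922 by edgeR), and INK-ATTAC libraries 1, 6, 7 and 8 lay below every control. Etfb was at 436, 521 and 536 CPM in controls and at 491, 524 and 618 CPM in INK-ATTAC libraries, a log2 fold change of 0.11 (SE 0.07), or 0.07 without INK-ATTAC 2. Cpt1a was at 71.6, 91.7 and 106 CPM in controls and at 71.5, 92.5 and 118 CPM in INK-ATTAC libraries, a log2 difference of 0.04 (-0.03 to 0.09 leaving out 1 library). The medians of Cpt1a differed by far less than the libraries of either group.

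The ketone genes gave the same picture. Bdh1 was at 10.6, 11.4 and 13.8 CPM in controls and at 9.10, 10.6 and 13.5 CPM in INK-ATTAC libraries, a log2 fold change of -0.14 (SE 0.10). Oxct1 was at 172, 195 and 208 CPM in controls and at 170, 181 and 216 CPM in INK-ATTAC libraries, a log2 difference of -0.03 (SE 0.06; -0.07 to -0.01 leaving out 1 library). The groups overlapped for both.

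**Figure D2:**
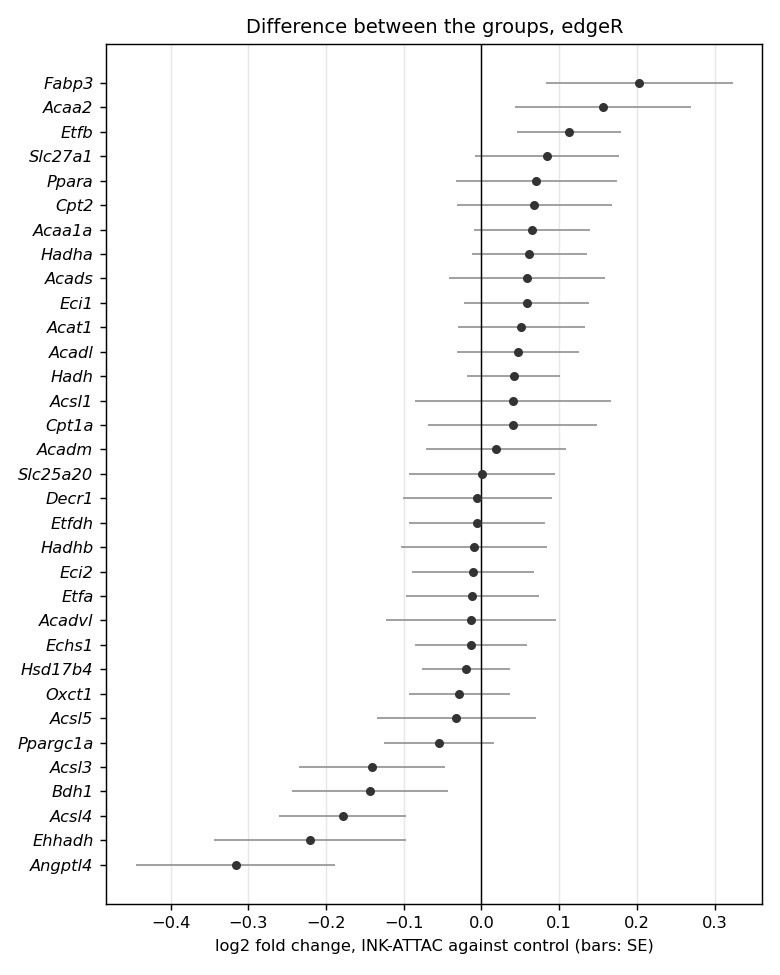
Log2 fold change of INK-ATTAC against control for the 33 tested genes (edgeR; horizontal bars are standard errors). Values run from -0.32 for Angptl4 to 0.20 for Fabp3, and 25 of 33 lie within 0.1 of 0.

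The other 57 genes of lipid uptake, storage and oxidation that were listed, 56 of them tested, also gave no call between the groups, with 31 on the higher side. Lpl, the lipoprotein lipase that Angptl4 inhibits, was at 40.0, 50.5 and 60.5 CPM in controls and at 45.8, 65.2 and 73.4 CPM in INK-ATTAC libraries, a log2 fold change of 0.32 (SE 0.11, unadjusted p = 0.00844, adjusted p = 1.00 by edgeR). Fat and muscle express Lpl, and all 6 adipocyte markers tested were on the higher side in INK-ATTAC libraries (median log2 fold change 0.58), as were all 9 lens markers (3.02) and all 6 smooth muscle markers (0.19), with 0 past the threshold in each list. On the lower side were 15 of 16 rod markers (-0.27), all 7 erythrocyte markers (-0.46), 7 of 9 cone, 5 of 6 melanocyte and 8 of 10 macrophage markers. Per unit of the muscle marker level the log2 amount of Lpl changed by -0.05 (SE 0.07). The part of fat, lens and smooth muscle in the difference of Lpl was not tested. Acaa1b, the peroxisomal thiolase paralog of Acaa1a, was at 0.55, 1.14 and 1.59 CPM in controls and at 1.16, 1.84 and 2.15 CPM in INK-ATTAC libraries, a log2 fold change of 0.60 (SE 0.20, unadjusted p = 0.00875, adjusted p = 1.00). Acaa1b and Acaa1a are near copies, and reads that could belong to either make both uncertain. The third on the higher side was Acot1, an acyl-CoA thioesterase with a near copy in Acot2, at 0.31 (log2, SE 0.16). On the lower side were Acsl6 at -0.12 (SE 0.07), the monocarboxylate transporter gene Slc16a7 at -0.22 (SE 0.16; -0.12 without control 6) and the branched-chain dehydrogenase gene Acadsb at -0.14 (SE 0.10; -0.09 without control 5).

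In the authors' deposited table, 33 of the 34 genes had a value and none was called, with 23 on the higher side and 10 on the lower. That table called 3 of its 14442 genes. The authors' deposited table gave 2 of the 33 an unadjusted p under 0.05, beside 6.42% of all its genes: Fabp3 at 0.30 (log2) and Ehhadh at -0.26.

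Whatever their group, libraries that were high in one of these genes tended to be high in the others. The median correlation between pairs of the 33 genes, over deviations of log2 CPM from the group mean in the 15 libraries, was 0.495, beside -0.00192 for pairs of all genes tested. Of 528 pairs, 259 were over 0.5 (49.1%, beside 8.44% of all pairs). The pair Etfdh and Hadhb, the flavoprotein's oxidoreductase and the β subunit of the trifunctional protein, was the closest at 0.958. Hadha and Hadhb, the subunits of the trifunctional protein, reached 0.868, and their RefSeq starts lie 272 bases apart on chromosome 5, pointing away from each other. Cpt1a and Cpt2 reached 0.849. Acsl5 and Acsl4 stood apart, with median correlations to the other genes of -0.26 and -0.11, while Acat1 had the highest at 0.77. These correlations share libraries, depth and cell makeup, and are given as a description.

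The mean log2 CPM of 16 RPE markers, called the RPE level below, ran over a narrow range, from 10.01 to 10.29 (their summed amount from 71292 to 102874 CPM). The markers were Rpe65, Rlbp1, Rdh5, Rgr, Best1, Lrat, Ttr, Stra6, Rrh, Slc16a8, Pmel, Tyrp1, Otx2, Mitf, Trpm1 and Ermn. Pmel, Tyrp1 and Mitf are pigment cell genes, and the part of melanocytes in this level was not tested. Melanocyte markers summed to 6149 to 7954 CPM in controls and 5333 to 8043 in INK-ATTAC libraries. In a fit with the group, 17 of the 33 genes rose with the RPE level and none fell (edgeR's quasi-likelihood test with Benjamini-Hochberg adjustment), beside 2.96% of all genes that rose and 6.88% that fell. In bulk tissue, more RPE cells and more RNA per RPE cell cannot be told apart. Slopes of the 17, the change in log2 CPM for each unit of RPE level, ran from 1.08 to 2.46. They took in the mitochondrial carrier (Slc25a20), Cpt2, 2 of the 4 chain-length dehydrogenases (Acadvl for very long and Acadl for long chains), both trifunctional subunits, the thiolases Acaa2 and Acat1, Echs1, Decr1, Eci1, Eci2, all 3 flavoprotein genes (Etfa, Etfb, Etfdh), Acsl1 and Acsl3. Eci2 acts in peroxisomes as well as mitochondria. Of the others, Ehhadh, Hsd17b4, Acaa1a, Ppara, Ppargc1a, Bdh1 and Oxct1 did not pass.

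The count of 17 changed with other terms in the model. It was 4 with the Xist class in the model (Echs1, Etfa, Slc25a20 and Hadhb), 6 with the muscle level, and 0 with the level of 10 endothelial markers, with the median in place of the mean of the RPE markers, or with the title numbers as blocks. The number of all genes that rose changed as well, from 533 to 238 with the Xist class and 183 with the muscle level. It was 22 with the marker median and 0 with the title blocks. The slopes fell less than the count: their median over the 33 genes, 1.33, was 1.03 with the Xist class, 1.18 with the muscle level, 0.96 with the endothelial level and 0.82 with the title blocks. With the marker median it was 0.41, per unit of a different measure. With the endothelial level in the model no gene of all tested was called, the RPE and endothelial levels being correlated at -0.79 over the 15 libraries. In a fit of the endothelial level with the group, a fit added after the data were seen, 17 of the 33 genes fell with it, beside 6.58% of all genes that did. With the Xist class in that model 11 of the 33 fell, beside 1077 of all 17991 genes. Left out singly, control 6 lowered the count on the RPE level to 4, INK-ATTAC 7 to 5 and INK-ATTAC 2 to 7. Of all genes 51, 127 and 176 rose in those fits, in that order. Whether the genes follow RPE content, choroidal vessel content or another property of these libraries cannot be told apart.

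The 3 genes with the lowest p on the RPE level show its form. Slc25a20 (chr9:108662088-108684641) was at 49.8, 67.0 and 79.1 CPM in controls and at 58.3, 65.9 and 80.4 CPM in INK-ATTAC libraries, with a slope of 2.01 (SE 0.35, adjusted p = 0.0053 by edgeR). With the title blocks its slope was 1.39, with the endothelial level 1.31 and with the marker median 0.68. Its lowest library, control 6, had the second-lowest RPE level. Acadvl (chr11:70010183-70015411) was at 130 to 192 CPM in controls and 129 to 198 CPM in INK-ATTAC libraries, with a slope of 2.28 (SE 0.45, adjusted p = 0.00715). That of Acadvl was 0.82 with the title blocks, 2.20 with the endothelial level and 0.68 with the marker median. Acadl (chr1:66830839-66863277) was at 139 to 178 CPM in controls and 142 to 196 CPM in INK-ATTAC libraries, with a slope of 1.56 (SE 0.33, adjusted p = 0.0095), or 0.67 with the title blocks and 0.48 with the marker median. These are also the genes whose upstream windows are printed above, which share no motif of the 9 among all 3.

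**Figure D3:**
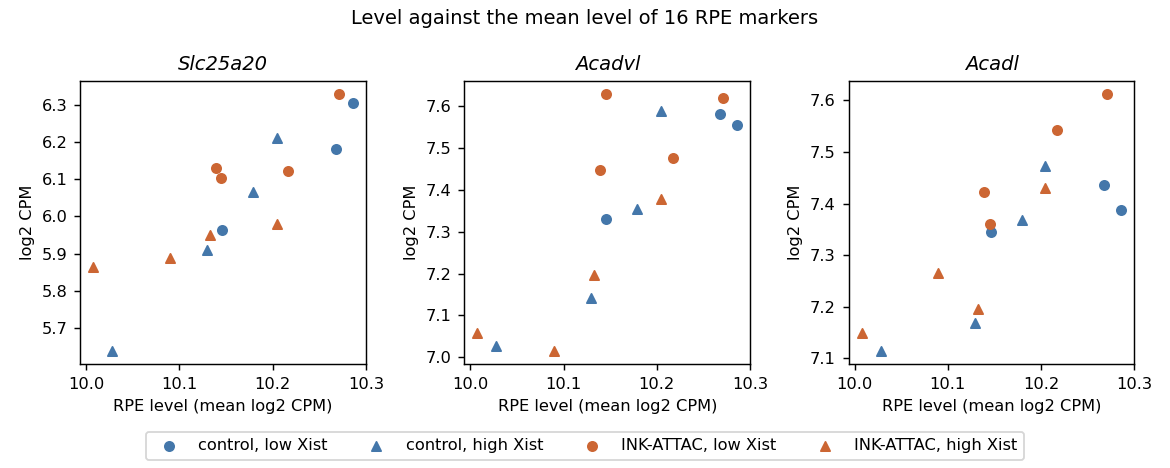
Log2 CPM of Slc25a20, Acadvl and Acadl against the RPE level (mean log2 CPM of 16 RPE markers; 1 point a library, colour for the group, shape for the Xist class). The points rise from an RPE level of 10.01 to 10.29, and the 2 libraries at the left, control 6 and INK-ATTAC 7, are of high Xist and low in all 3 genes.

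Of the other pathway genes, 10 of 56 rose with the RPE level and 2 fell. The 2 that fell were Acacb, whose product makes the malonyl-CoA that blocks the carnitine shuttle, and Rxra, a partner of PPARα, both named after their values were seen.

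Markers of skeletal muscle and of rods were read in these libraries, and no gene of the list was called on the level of either. With the muscle level, 0 of the 33 genes passed the threshold, beside 0.795% of all genes, and 5 had an unadjusted p under 0.05, all higher: Fabp3, Etfa, Decr1, Acadm and Hadhb. Of all genes 12.4% had such a p, 5.82% on the higher side. The count was 14 without control 2, 2 without any one of controls 1, 5 and 7 and INK-ATTAC 7, 3 without INK-ATTAC 2, 8 without INK-ATTAC 3 and 0 with the title blocks. The number of all genes with such a p, 2225, moved too: 2773 without control 2 and 1453 to 1882 where the count was 2. It was 1763 without INK-ATTAC 2, 2145 without INK-ATTAC 3 and 1850 with the title blocks. Etfa was at 135, 161 and 205 CPM in controls and at 138, 164 and 186 CPM in INK-ATTAC libraries, with a slope of 0.12 (SE 0.04). Decr1, which reduces double bonds of unsaturated fatty acids, was at 77.1, 97.1 and 111 CPM in controls and at 80.8, 96.5 and 113 CPM in INK-ATTAC libraries, with a slope of 0.12 (SE 0.05), or 0.18 without control 2. With the rod level, 0 of 33 passed, beside 0.528% of all genes, and 1, Oxct1, had an unadjusted p under 0.05 (4.77% of all genes), with a slope of 0.09 (SE 0.03). Without INK-ATTAC 2, the library of lowest rod level, 5 of 33 had such a p, 31 of 33 were on the higher side, the median slope was 0.11 in place of 0.02, and the slope of Oxct1 was 0.14. Of all genes 1360 of 17903 had such a p in that fit, beside 859 of 17991 with every library. With the title blocks 7 of 33 were on the higher side, with a median slope of -0.05. Hsd17b4, a peroxisomal bifunctional enzyme, was at 80.3, 84.7 and 90.7 CPM in controls and at 77.1, 83.5 and 96.2 CPM in INK-ATTAC libraries, with a rod slope of 0.05 (SE 0.03), or 0.02 without INK-ATTAC 3. Acadm, the medium-chain dehydrogenase, was at 66.9, 75.7 and 90.03 CPM in controls and at 63.6, 81.3 and 90.1 CPM in INK-ATTAC libraries, with a rod slope of 0.07 (SE 0.05), or 0.16 without INK-ATTAC 2.

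Cpt2 and Cpt1a, the 2 carnitine transferases of the list that were tested, were lower in libraries of high Xist. Cpt2 (chr4:107903981-107923610) was at 95.8, 104 and 119 CPM in the 7 libraries of low Xist and at 76.7, 82.6 and 88.6 CPM in the 8 of high Xist. Cpt1a (chr19:3322334-3385733) was at 97.4, 103 and 118 CPM in low Xist and at 71.5, 80.9 and 91.7 CPM in high Xist. The classes did not overlap for either gene. Allowing for the group, Cpt2 fell by 0.34 (log2, SE 0.06, adjusted p = 0.0133) and Cpt1a fell by 0.36 (SE 0.07, adjusted p = 0.0441) in high against low Xist by edgeR's quasi-likelihood test. These 2 were the calls among the 33 genes, beside 0.106% of all genes called lower and 0.0723% called higher.

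Within each group the order was the same for both. In controls Cpt1a was at 103 ± 3.72 CPM in low Xist (SD, n = 3) and 80.6 ± 8.96 in high Xist (n = 4), and in INK-ATTAC libraries at 104 ± 9.43 (n = 4) and 81.0 ± 7.55 (n = 4). In controls Cpt2 was at 101 ± 5.83 CPM (n = 3) and 83.0 ± 4.87 (n = 4), and in INK-ATTAC libraries at 108 ± 7.24 (n = 4) and 82.0 ± 4.41 (n = 4). A test of whether the class difference depended on the group called no gene (0% of all genes, 0 of the 33; edgeR), and 0 of the 33 had an unadjusted p under 0.05 there, beside 4.77% of all genes.

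**Figure D4:**
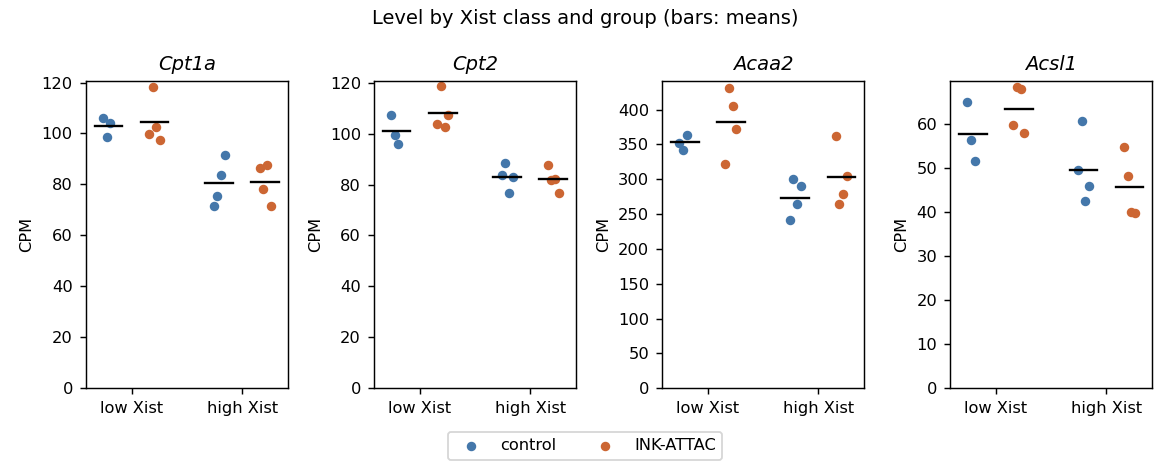
CPM of Cpt1a, Cpt2, Acaa2 and Acsl1 by Xist class and group (1 point a library, bars are means; 3 and 4 controls, 4 and 4 INK-ATTAC libraries). The classes do not overlap for Cpt1a and Cpt2 and overlap for Acaa2 and Acsl1, which were chosen for the plot after their values were seen.

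No other gene of the list passed the threshold. Of the 33 genes 31 were on the lower side in high Xist, with a median of -0.14 (log2) beside 0.01 for all genes tested, and 17 had an unadjusted p under 0.05 on the lower side, beside 5.25% of all genes. Acaa2 was at 322 to 431 CPM in low Xist and 241 to 362 in high Xist. The 2 on the higher side were Acsl4, on the X chromosome, at 0.14 (log2, SE 0.08) and Acsl5, on chromosome 19, at 0.13 (SE 0.10).

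The calls of Cpt2 and Cpt1a held with limma-voom, DESeq2, another scaling (RLE) or another low-count filter, and with the muscle level in the model. They did not hold under several other fits. With the RPE level in the model neither Cpt2 nor Cpt1a passed (adjusted p = 0.135 for both, log2 differences of -0.27 and -0.38). Cpt1a passed in 1 of 15 fits that left out 1 library and Cpt2 in 12, and neither Cpt1a nor Cpt2 passed without control 1, INK-ATTAC 2 or INK-ATTAC 4. Leaving out 1 library, the log2 difference stayed between -0.39 and -0.33 for Cpt1a and between -0.37 and -0.31 for Cpt2. With title numbers as blocks neither passed (adjusted p = 0.998 by edgeR), at -0.41 (SE 0.20) for Cpt1a and -0.30 (SE 0.18) for Cpt2. Of the numbers shared by both groups, only number 4 joined libraries of different class (control 4 of high and INK-ATTAC 4 of low Xist). With so little contrast of class within blocks, that fit cannot decide whether the calls hold.

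Marker lists moved with the Xist class as well. In high Xist 13 of 16 RPE markers were on the lower side (RPE level 10.14 to 10.29 in low and 10.01 to 10.20 in high Xist) and 9 of 10 endothelial markers on the higher side (summed 354 to 518 CPM in low and 342 to 643 in high Xist), as were all 6 smooth muscle markers (summed 354 to 475 CPM in low and 288 to 585 in high Xist). All 16 rod markers, all 9 lens markers, all 7 erythrocyte markers and all 6 adipocyte markers tested were on the lower side, as were 17 of 21 skeletal muscle markers, with 0 past the threshold in every list. Title numbers and Xist class run together as well, and the parts of these properties in the carnitine transferase levels cannot be told apart.

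**Figure D5:**
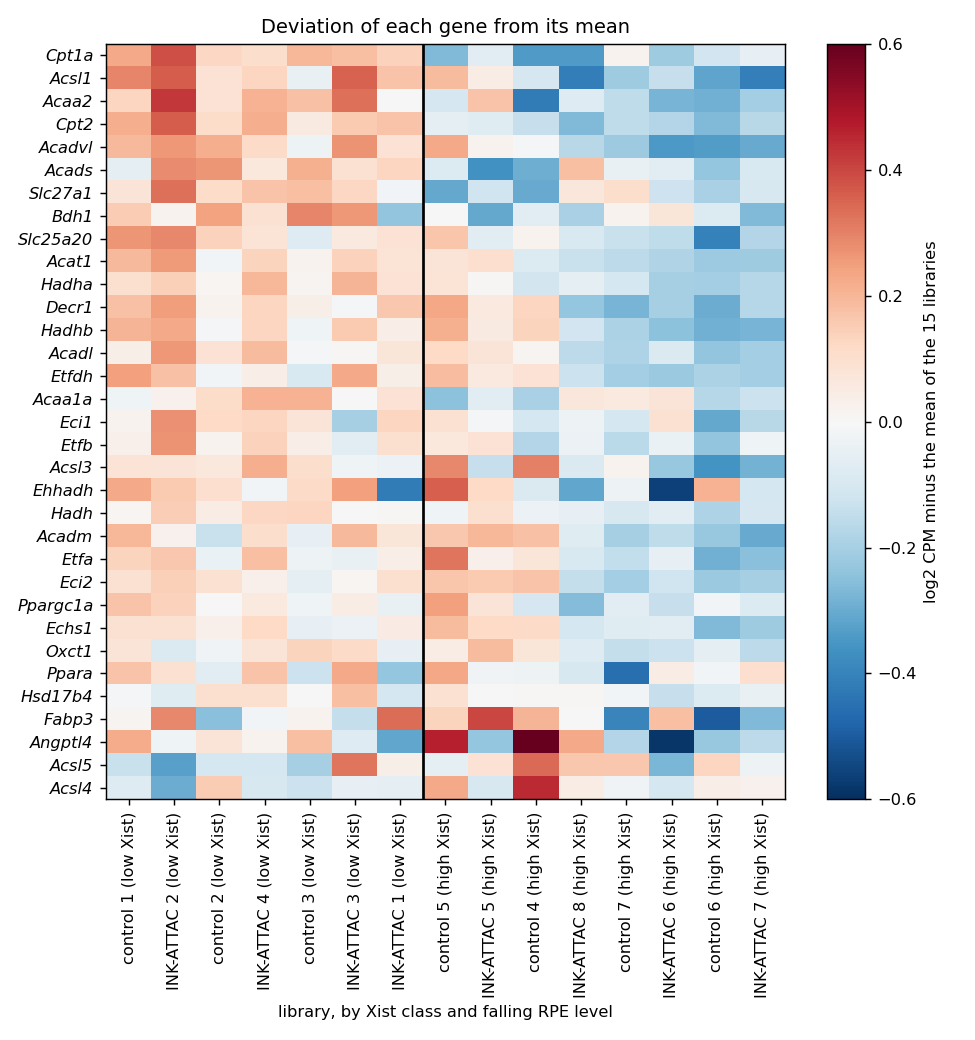
Deviation of each of the 33 genes from its mean (log2 CPM; red above, blue below), with the libraries ordered by Xist class and then by falling RPE level. Most rows are red at the left and blue at the right, and Acsl4 and Acsl5 run against the rest.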

How the data were processed

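RNA-seq libraries of RPE/choroid complex (7 control, 8 INK-ATTAC) were analysed from deposited tables. Per the labels' protocols, RNA was taken in TRIzol, purified on columns and amplified as cDNA by SMARTer chemistry. Per the submitters' processing notes, bcl2fastq, DRAGEN, edgeR and limma were used with GRCm38; which program counted the reads, with what strand setting and annotation, is not given in the sources used here, so reads of overlapping genes, 14 of the 34 among them, may be shared. The authors deposited raw read counts per gene, and 276 repeated entries were collapsed. The authors also deposited a comparison table that, per the file headers, holds log2 CPM and log2 fold changes, p-values and statistic scores; it was used only where named.

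The counts were tested in edgeR 4.0.16 (R 4.3.3) with TMM scaling, its default low-count filter and the quasi-likelihood F-test, Benjamini-Hochberg adjusted over all 17991 genes at 0.05, on group alone or on a marker level or Xist class with group as covariate. The Xist classes were split at the midpoint of the range. RPKM used the longest principal transcript of GENCODE M21. CPM are on TMM library sizes. DESeq2 1.42.0, limma 3.58.1 and sva 3.50.0 gave alternatives. The group, Xist class and RPE level fits were tested on simulated counts. The planted changes and slopes were larger than any fitted here for the listed genes, so recovery at the sizes reported was not tested. No 2 libraries of a group were alike within counting noise (lowest chi-square per gene 27.6). The genes and lists were chosen with earlier results of these data known. Named genes were the 6 of lowest p between groups, the 3 of lowest p on each of the muscle, rod and RPE levels, 8 of set pathway roles, and of the other pathway genes the 3 of lowest p in each direction; some named by that rule are not reported here.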

Additional observations from a re-analysis of the deposited data

Results flagged for a closer look

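Of the 66 sets of values checked (33 genes in 2 groups), 2 held a library far from the others of its group, where chance gives about 1 in 20. Acsl3 in control 6 was at 5.49 log2 CPM, the lowest of its group, and the nearest control was at 5.87. Control 6 also had the lowest RPE level of the controls. Acsl4 in INK-ATTAC 2 was at 4.95 log2 CPM, the lowest of its group, and the nearest INK-ATTAC library was at 5.14. INK-ATTAC 2 also had the lowest rod level of all libraries.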

How the results depend on the processing

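Between the groups, none of the 33 genes was called in any of the 30 alternatives (lowest adjusted p 0.695), and the number of all genes called was 0 except 6 with DESeq2, 2 with limma-voom quality weights and 1 with 1 surrogate variable. The direction of 11 of the 33 genes held in all 30 alternatives and that of 22 turned in at least 1. The count at an unadjusted p under 0.05, 2, was 5 with the RPE level, 4 with 1 surrogate variable, 1 with limma-voom, with the rod level, with low-Xist libraries alone and with the replicate block by title or by description number, 0 with high-Xist libraries alone, and 0 to 3 when each library was left out. Over all genes that number, 745, was 1231 with the RPE level and 1139 with 1 surrogate variable. It was 615 to 909 in the fits with a count of 1 and 730 with high-Xist libraries alone. Turned values were 0.00062 for Ppargc1a in low-Xist libraries alone, -0.0162 for Cpt1a with quality weights (-0.0281 to 0.0864 leaving out each library), 0.0109 for Oxct1 with the rod level and -0.0478 for the rod slope of Acadm with the block by title number. The 17 genes on the RPE level were 0 with that block, with the endothelial level and with the marker median, 4 with the Xist class, 6 with the muscle level, and 4 to 18 leaving out each library. The genes of the whole table that rose, 533, were 0 to 238 with those terms and 51 to 961 leaving out each library. The 2 genes by Xist class were 0 with the RPE level, 0 to 2 leaving out each library, and 0 with the block, where only number 4 joined libraries of different class. The cause was not tested. The labels do not say that a number marks a shared animal or batch. Correlations of same-numbered deviations ran from -0.10 to 0.29 by title, over 0.1 in 4 of 7 pairs and so short of every pair, and from -0.15 to 0.23 by description. By title, 4 INK-ATTAC libraries and 1 control correlated best with their own number. Models with the endothelial level, with 2 levels together, with a single Xist class, with the marker median, with description numbers and DESeq2 on the RPE level and Xist class were chosen after seeing the data. Depth limits Cpt1b.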
